A study of Danio rerio with 8 samples.

Results

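Annexins are calcium-dependent proteins that bind acidic phospholipids on the inner face of the plasma membrane and of endosomes. In mammals annexin A2 also binds actin filaments and forms a stable complex with S100A10, a small protein of the S100 family that has lost the ability to bind calcium. This complex joins the cortical actin network to the membrane, holds plasminogen and its activators at the cell surface, and is used with other annexins in the resealing of torn plasma membrane, a constant need of contracting muscle cells. In mammalian cardiomyocytes annexins A5 and A6 have been found at the sarcolemma, and teleost fish carry additional copies of several of these genes.

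The genes described are 9 annexin genes, *anxa1a*, *anxa2a*, *anxa2b*, *anxa4*, *anxa5a*, *anxa5b*, *anxa6*, *anxa11a* and *anxa11b*, and *s100a10b*, which encodes the S100A10 partner. They were taken by their Ensembl zebrafish symbols where these matched, and all 10 were found among the 31388 genes of the table. ENSDARG00000026726 bears the human-style symbol ANXA1 and was taken as *anxa1a* through a synonym in the RefSeq annotation. The symbol table gives the human-style symbol ANXA11 to both ENSDARG00000002632 and ENSDARG00000077383 without saying which is *anxa11a*, so these genes are named by their identifiers. The family was chosen because the values of *anxa2a* in these same libraries were already known to differ strongly between the populations. The levels and fold changes of the 10 genes are therefore given as a description, with no *p*-value.

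RNA-Seq was performed on ventricular cardiomyocytes of adult zebrafish of 6 to 9 months that carried the transgenes *tbx5a:GFP* and *myl7:nuc-dsRed*. The *myl7* promoter drives nuc-dsRed in the nuclei of cardiomyocytes, and GFP reports *tbx5a*. Cells with both colours were sorted as *tbx5a*+ cardiomyocytes and cells with nuc-dsRed alone as *tbx5a*- cardiomyocytes, so both populations carry both transgenes, and neither injury nor drug was part of this comparison. According to the study, GFP marks most of the trabecular myocardium and is absent from the outer cortical layer and from a basal part of the trabeculae, so the *tbx5a*- population can hold cells of both places. Replicates 2, 8, 9 and 10 each comprise 1 library per population from 5 pooled hearts, and the labels pair the libraries by this number.

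The table holds a normalized value for each gene and library, in which 1 sequenced read is worth 0.859 to 1.19 units. The libraries held 7149173 to 9491728 estimated reads and had 11329 to 14983 genes above 0, the fewest in the *tbx5a*- libraries of replicates 9 and 2. *tbx5a*, on whose reporter the cells were sorted, had 4132 ± 917 (SD, *n* = 4) in *tbx5a*+ against 249 ± 172 (SD, *n* = 4) in *tbx5a*- cardiomyocytes. Of 13 cardiomyocyte marker symbols, 8 were matched to 1 gene each, and these 8 genes were above 0. Their values summed to 250430 to 275710 in *tbx5a*+ and 233500 to 278610 in *tbx5a*- libraries. However, *vmhc* among them was called higher in *tbx5a*- cardiomyocytes by the test described further on. A large part of the cardiomyocyte sum came from *myl7*, whose promoter drives the reporter used in the sort, with means of 89973 in *tbx5a*+ and 91813 in *tbx5a*- libraries. Values are not corrected for transcript length, so levels of different genes were not compared as amounts. Sums over a marker list are set mostly by its highest genes and serve only to compare libraries.

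*anxa2a* (ENSDARG00000003216), which encodes annexin A2, was read at 1914 in the *tbx5a*- library of replicate 2, at 1365 in that of replicate 8, at 1922 in that of replicate 9 and at 800.4 in that of replicate 10. In the *tbx5a*+ libraries of the same replicates its values were 12.3, 79.5, 43.0 and 50.8. All *tbx5a*- libraries thus lay above all *tbx5a*+ libraries, and the lowest of the former was 10.1 times the highest of the latter. The means were 1500 ± 534 (SD, *n* = 4) in *tbx5a*- against 46.4 ± 27.6 (SD, *n* = 4) in *tbx5a*+ cardiomyocytes. From the mean log2 values the fold change was -5.16 (SE, the standard error, 0.44). Fold changes are *tbx5a*+ relative to *tbx5a*- on the log2(value + 1) scale and are negative where *tbx5a*- cardiomyocytes were higher. Of the 13895 genes tested, 6 had a lower log2 fold change than *anxa2a*, which ranked 7 from the lowest. In bulk libraries, fewer cells with the transcript and less transcript per cell cannot be told apart.

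The size of the *anxa2a* difference varied between the pools of hearts. The *tbx5a*- library had 155 times the value of its *tbx5a*+ partner in replicate 2, 44.7 times in replicate 9, 17.2 times in replicate 8 and 15.8 times in replicate 10. Most of this variation came from the low side, where the values spanned 6.45-fold, against 2.40-fold among the *tbx5a*- libraries. The *tbx5a*+ values rest on 12, 81, 45 and 54 estimated reads in replicates 2, 8, 9 and 10. Pooled over libraries there were 5634 reads in *tbx5a*- and 192 in *tbx5a*+ cardiomyocytes, a ratio of 30.9 after scaling for depth (95% interval 26.7 to 35.8 by the exact Clopper-Pearson method, for counting error alone).

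**Figure D1:**
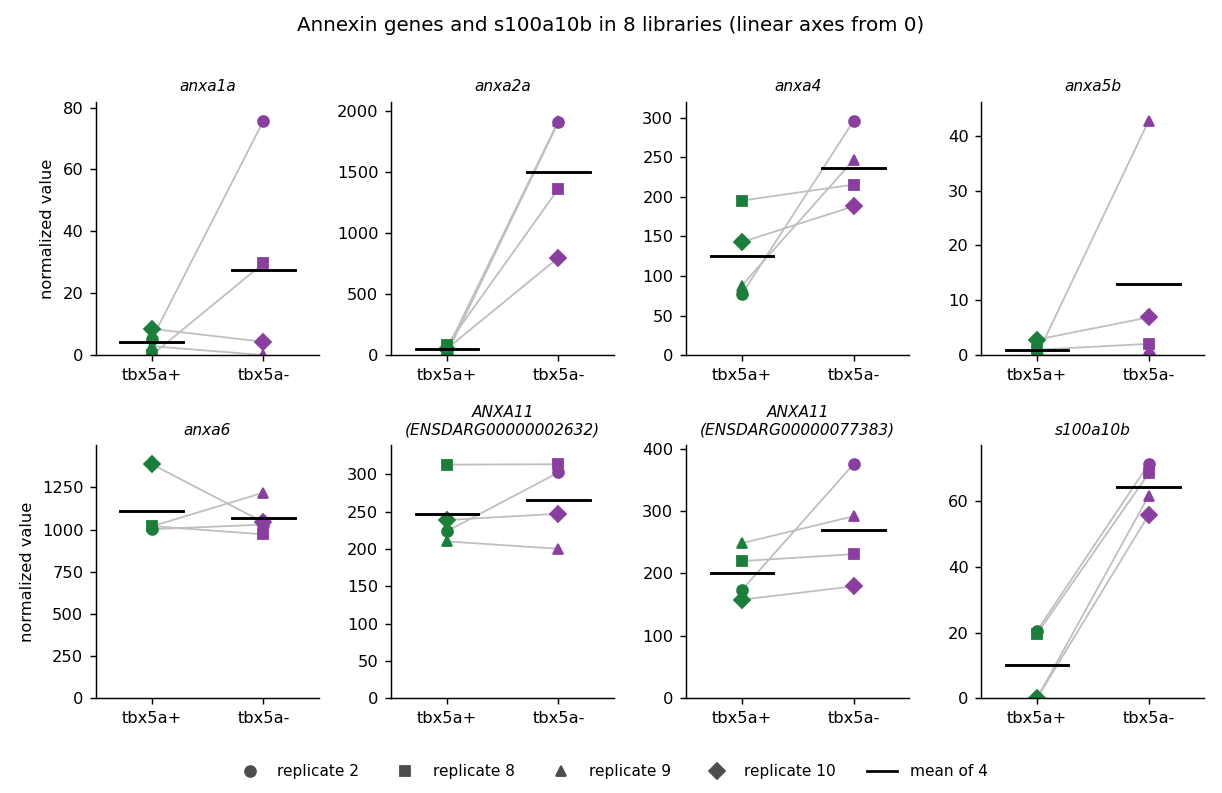
Normalized value (vertical axes, linear from 0, own scale for each gene) of the 8 annexin and S100A10 genes above 0 in any library, in *tbx5a*+ (green) and *tbx5a*- (purple) libraries. Symbols mark the replicate, grey lines join the libraries of a pair and black bars are means of 4. For *anxa2a* and *s100a10b* every purple point lies above every green point, whereas for *anxa6* the means of 1107 and 1066 nearly meet.

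A small *anxa2a* signal thus stayed in *tbx5a*+ cardiomyocytes, and a small *tbx5a* signal in *tbx5a*- cardiomyocytes. The *tbx5a*+ library held 0.644%, 5.82%, 2.24% and 6.35% of the *anxa2a* value of its partner in replicates 2, 8, 9 and 10. For *tbx5a* the reverse share, the *tbx5a*- value as a percentage of the *tbx5a*+ value, was 8.98%, 9.92%, 2.83% and 2.42% in the same replicates. The replicate with the lowest share for *anxa2a* was number 2 and that for *tbx5a* was number 10, so no replicate was lowest for both. How far either share comes from cells sorted into the other population was not tested.

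**Figure D2:**
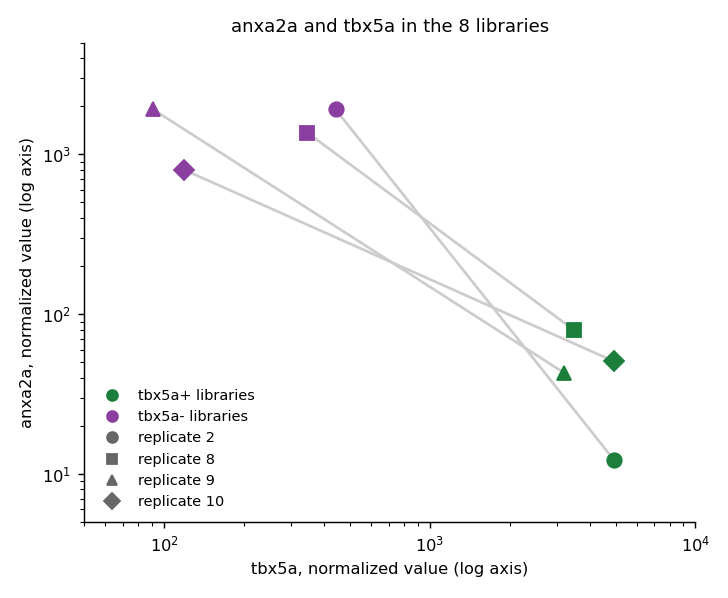
Normalized value of *anxa2a* (vertical, log axis) against that of *tbx5a* (horizontal, log axis) in the 8 libraries, with grey lines joining the pairs. The *tbx5a*- libraries sit at the upper left, with *anxa2a* between 800.4 and 1922, and the *tbx5a*+ libraries at the lower right, with *anxa2a* between 12.3 and 79.5.

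The paralog *anxa2b* (ENSDARG00000053625) was listed at 0 in all 8 libraries. None of 19 widely used genes looked up, such as *gapdh* and *eef1a1l1*, was at 0 in any library, and the lowest value among them was 3.29, for *tbp*. Among the 31388 genes of the table, however, 11390 were at 0 in every library. A level of 3 reads, taken as the 95% upper limit for a count of 0 by counting error alone, would be a value of 2.58 to 3.56. The annexin A2 signal of both populations was listed under *anxa2a* alone. How the estimation of counts divided reads between the paralogs was not tested.

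*s100a10b* (ENSDARG00000025254) encodes the S100A10 protein, which in mammals needs annexin A2 to escape degradation. Its values were 71.3, 68.5, 61.7 and 55.8 in *tbx5a*- replicates 2, 8, 9 and 10. In *tbx5a*+ libraries they were 20.5 in replicate 2 and 19.6 in replicate 8, and the gene was listed at 0 in replicates 9 and 10. Every *tbx5a*- library thus lay above every *tbx5a*+ library, the lowest at 2.72 times the highest, and the *tbx5a*- values had a coefficient of variation of 10.8%. The mean was 64.3 ± 6.95 (SD, *n* = 4) in *tbx5a*- cardiomyocytes, and the log2 fold change was -3.82 (SE 1.21).

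The *s100a10b* values rest on few reads, 52 to 67 estimated reads in each *tbx5a*- library and 20, 20, 0 and 0 in the *tbx5a*+ libraries. By pair, the *tbx5a*- value was 3.47 times the *tbx5a*+ value in replicate 2 and 3.49 times in replicate 8. Where the *tbx5a*+ value was 0, a floor of 3 reads was put in its place. The *tbx5a*- value was 21.5 times this floor in replicate 9 and 19.8 times in replicate 10, without regard to its own error. Pooled, 249 reads stood against 40, a ratio of 6.55 after scaling for depth (95% interval 4.68 to 9.39 by the same method). This interval is for counting error alone and leaves out the spread between libraries, so it is no test of the difference. The fitted fold change depends on how the zeros are treated, and it was -5.50 with 0.1 added to each value and -2.62 with 5 added. The other S100A10 gene of zebrafish, *s100a10a*, was listed at 0 in all 8 libraries.

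The low libraries of the partners were not the same ones. *anxa2a* was lowest in the *tbx5a*+ library of replicate 2, one of those in which *s100a10b* was above 0. The deviations of the 8 libraries from their group means had a Pearson *r* of -0.24 between the partners, given as a description over libraries that share the sort and the pools. At 0 to 20 reads of *s100a10b* in a *tbx5a*+ library, no shared variation within a population could be read from this value.

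*anxa4* (ENSDARG00000036456) encodes annexin A4, a membrane-binding protein that in mammals restrains calcium-activated chloride channels. It had 296, 216, 247 and 188 in *tbx5a*- replicates 2, 8, 9 and 10 and 77.0, 195, 88.0 and 143 in the *tbx5a*+ libraries. The *tbx5a*- library was the higher of the pair in 4 of 4 pairs, but the groups overlapped, since the *tbx5a*+ library of replicate 8 lay above the *tbx5a*- library of replicate 10. The means were 237 ± 46.3 and 126 ± 54.6 (SD, *n* = 4 each), and the log2 fold change was -0.99 (SE 0.39). The *tbx5a*+ library held 26.0% of the value of its partner in replicate 2 but 90.6% in replicate 8.

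The remaining widely detected annexins differed little. *anxa6* (ENSDARG00000013335), which encodes annexin A6 with its doubled core domain, had 1030, 972, 1219 and 1044 in *tbx5a*- replicates 2, 8, 9 and 10. In *tbx5a*+ libraries it had 1002, 1021, 1019 and 1388, so that the groups overlapped and each population was the higher in 2 of 4 pairs. Its log2 fold change was 0.05 (SE 0.21), and it turned to -0.07 when values were scaled to library totals or when the *tbx5a*+ library of replicate 10 was left out. These values rest on 939 to 1475 estimated reads per library.

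Annexin A11 binds the calcium sensor encoded by *pdcd6* and, in mammalian neurons, tethers RNA granules to lysosomes. ENSDARG00000077383 had 375, 231, 292 and 179 in *tbx5a*- replicates 2, 8, 9 and 10 and 174, 220, 249 and 158 in the *tbx5a*+ libraries. The *tbx5a*- library was the higher in 4 of 4 pairs but by 1.05- to 2.16-fold, and the groups overlapped (log2 fold change -0.40, SE 0.34). Without the *tbx5a*- libraries of replicates 2 and 9 this value was -0.05. ENSDARG00000002632 had 303, 314, 200.4 and 247 in *tbx5a*- and 224, 313, 210 and 239 in *tbx5a*+ libraries, with a log2 fold change of -0.10 (SE 0.31). The groups overlapped here too, and the *tbx5a*- library was the higher in 3 of 4 pairs.

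The other members were at 0 or a few reads in most libraries. *anxa1a* (ENSDARG00000026726), whose mammalian counterpart is a ligand of formyl peptide receptors that limits inflammation, had 75.7, 29.6, 0 and 4.29 in *tbx5a*- replicates 2, 8, 9 and 10. In *tbx5a*+ libraries it had 5.13, 0, 2.87 and 8.47, so that each population was the higher in 2 of 4 pairs, and the log2 fold change of -1.45 (SE 1.49) ran from -2.58 without the *tbx5a*- library of replicate 9 to -0.80 without the *tbx5a*+ library of replicate 8. It passed the filter on low values only through the *tbx5a*- libraries of replicates 2 and 8. *anxa5b*, which encodes the phosphatidylserine-binding annexin A5, had 42.7 in the *tbx5a*- library of replicate 9, from 36 estimated reads, and 0 to 6.87 in the other 7 libraries. Its copy *anxa5a* was listed at 0 in all 8 libraries. *anxa5b*, *anxa5a* and *anxa2b* did not pass the filter, which asks for 1 CPM (the value scaled by its library total) in 2 libraries.

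Of the 10 genes, 7 could thus be tested among all genes. Calls needed both an adjusted *p* no higher than 0.05 and a log2 fold change of 1 or more in either direction, the thresholds of the study. The study tested with edgeR, whereas limma on log2(value + 1) was used here, so the calls can differ from those of the study. *anxa2a* was the 1 of 7 called, in a table in which 0.194% of the tested genes were called in either direction, 0.187% for *tbx5a*- and 0.0072% for *tbx5a*+ as the higher population. The *tbx5a*- libraries lay above all *tbx5a*+ libraries for 2 of 7, against 1.65% of the tested genes, and were higher in 4 of 4 pairs for 4 of 7, against 5.38%. The reverse held for 0 of 7 by either count, against 2.32% and 9.54% of the tested genes. The log2 fold change was below 0 for 6 of 7, against 38.7% of the tested genes, with a median of -0.99 against 0.20, and at or below -1 for 3 of 7, against 9.4%. These counts and the median include *anxa1a*, which passed the filter only through *tbx5a*- libraries. Values were above 0 in all 8 libraries for 5 of 7, against 58.3%. Since the family was chosen on this comparison, nothing is drawn from these shares. *anxa2a* was called under 18 of 18 alternative settings, with log2 fold changes of -5.51 to -4.64, and *s100a10b*, *anxa4*, *anxa6* and the ANXA11 genes under 0 of 18. *anxa1a* was called under 0 of the 14 settings in which it passed the filter. These settings refit the same libraries or a part of them, so they add no independent evidence.

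**Figure D3:**
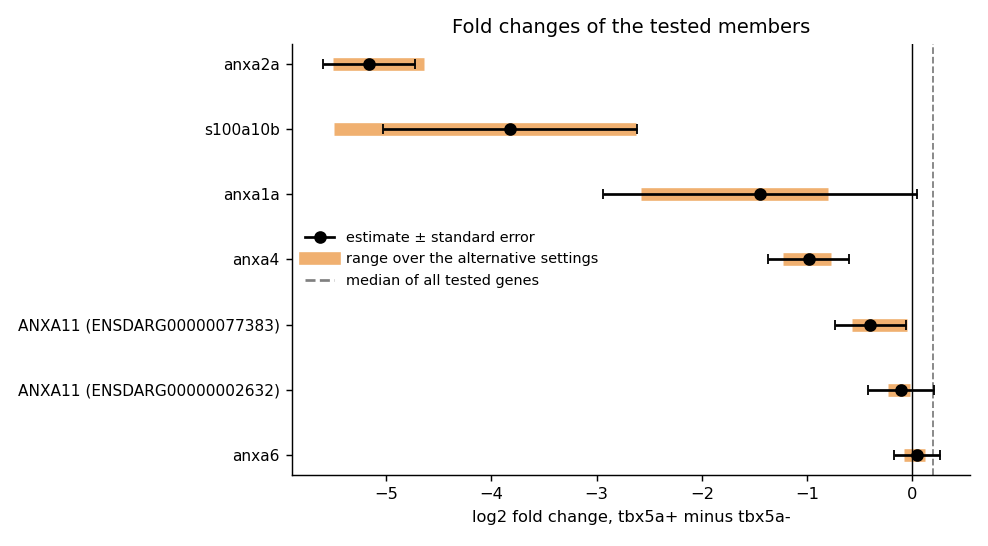
Log2 fold change of the 7 tested genes (horizontal axis, *tbx5a*+ minus *tbx5a*-), with black points and bars for the estimate and its standard error and orange bands for the range over the alternative settings. The dashed line is the median of all tested genes, 0.20. *anxa2a* lies at -5.16 with a band of -5.51 to -4.64, whereas the band of *s100a10b* runs from -5.50 to -2.62 and that of *anxa6* spans 0.

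The 5 genes whose values followed *anxa2a* most closely over the 8 libraries were found by Pearson *r* of log2(value + 1) among all tested genes. They were *xirp2a* (*r* = 0.99), for an actin-binding protein of the intercalated disc, the chemokine gene *cxcl18b* (0.98), *cd63* (0.97), which encodes a tetraspanin of late endosomes, *rpz5* (0.96) and the polarity gene *crb2a* (0.96). These values are descriptions over 8 libraries and are set in large part by the difference between the populations. The genes were picked as the highest over these same libraries, which also favours a high *r* once the group means are removed. After removal of the group means, *r* was 0.92 for *xirp2a*, 0.93 for *cxcl18b*, 0.78 for *cd63*, 0.56 for *rpz5* and 0.38 for *crb2a*. The last gene was listed at 0 in every *tbx5a*+ library and had 111 to 161 in *tbx5a*- libraries. It thus passed the filter, and varied within a population, only through the *tbx5a*- libraries. *xirp2a*, *cxcl18b* and *cd63* shared with *anxa2a* the lowest *tbx5a*+ value in replicate 2, at 162, 9.24 and 134. They also shared the lowest *tbx5a*- value in replicate 10, at 1255, 331.5 and 256. The same held for *anxa4*, at 77.0 and 188.

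*cd63* had 479, 389, 453 and 256 in *tbx5a*- replicates 2, 8, 9 and 10 and 134 to 180 in the *tbx5a*+ libraries. The groups did not overlap, and its log2 fold change of -1.28 (SE 0.32) had an adjusted *p* of 0.17 from limma. Among the annexins, *anxa4* was closest to *anxa2a*, with *r* = 0.89, and 0.85 after removal of the group means. The *r* of *s100a10b* was 0.70, that of ENSDARG00000077383 0.63 and that of *anxa6* -0.05.

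**Figure D4:**
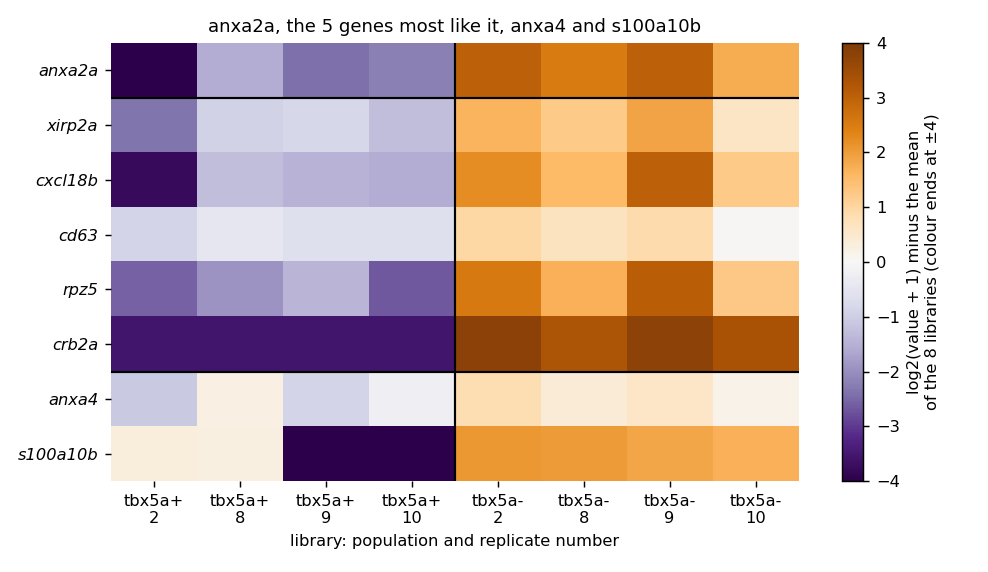
Values of *anxa2a* (top row), the 5 genes with the highest Pearson *r* with it (middle rows), and *anxa4* and *s100a10b* (bottom rows) in the 8 libraries (columns), as log2(value + 1) minus the gene's mean over the libraries. Purple is below and orange above the mean. *anxa2a*, *xirp2a*, *cxcl18b*, *cd63* and *anxa4* each have the darkest purple of their row in the *tbx5a*+ library of replicate 2, whereas *s100a10b*, at 20.5 there, is low in those of replicates 9 and 10.

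The genes that follow belong to lists drawn up by function, but with earlier results of these libraries known, so their calls are no independent evidence. Their adjusted *p*-values come from limma over all genes tested. Of 8 other annexin genes, 2 were listed at 0 throughout, 3 passed the filter and 0 were called. Their median log2 fold change was 0.15, beside 0.20 for all genes. *anxa13*, which encodes the annexin that is bound to membranes by a lipid anchor in mammalian epithelia, had 262 ± 62.9 in *tbx5a*- against 192 ± 25.3 in *tbx5a*+ cardiomyocytes (SD, *n* = 4 each, adjusted *p* = 0.77). *anxa3b* had 134 ± 72.2 and 132 ± 50.5 (adjusted *p* = 0.97) and *anxa13l* 28.3 ± 34.8 and 26.6 ± 17.4 (SD, *n* = 4 each, adjusted *p* = 0.84). *anxa1b*, *anxa1c* and *anxa1d*, copies of *anxa1a*, had a mean of at most 0.705 in either population.

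Of 13 other S100 genes, 6 were listed at 0 in all libraries, 5 passed the filter and 0 were called, with a median log2 fold change of 0.01. *s100u* had 200.7, 121, 207 and 88.5 in *tbx5a*- replicates 2, 8, 9 and 10 and 38.0, 7.85, 33.5 and 33.9 in the *tbx5a*+ libraries. The groups did not overlap, and the log2 fold change of -2.53 (SE 0.63) missed the threshold (adjusted *p* = 0.16). *icn*, which encodes ictacalcin, an S100 protein of fish epithelia, had 221.5, 87.9, 180 and 5.15 in *tbx5a*- libraries and 8.22, 0, 9.56 and 0 in *tbx5a*+ libraries of the same replicates. The *tbx5a*- library was the higher in 4 of 4 pairs, the groups overlapped, and its log2 fold change of -4.45 (SE 1.33) missed the threshold (adjusted *p* = 0.39). *s100s* had 80.3 ± 42.9 and 72.6 ± 14.2 (SD, *n* = 4 each) with an adjusted *p* of 0.999.

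*s100w*, *icn* and *icn2* are the next protein-coding genes after *s100a10b* in the RefSeq annotation of the GRCz12tu assembly, in this order. *icn2* was listed at 0 in all 8 libraries and *s100w* had a mean of 0.823 in *tbx5a*- cardiomyocytes and 0 in *tbx5a*+ cardiomyocytes. Of these neighbours *icn* alone was thus detected beyond a few reads, with *s100a10b* itself.

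**Figure D5:**
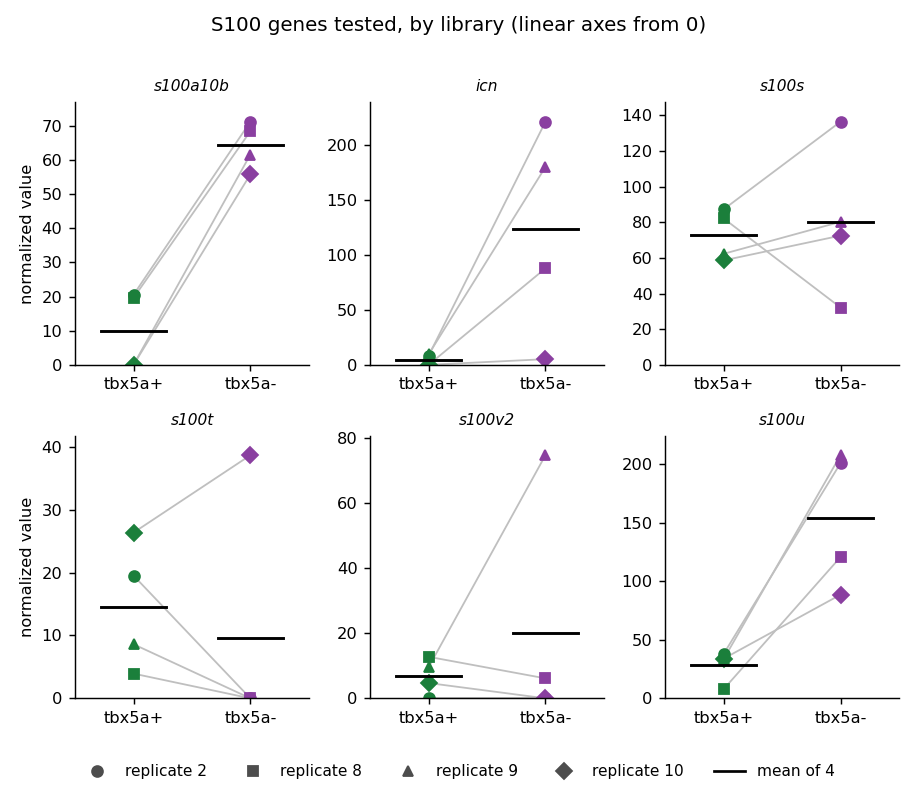
Normalized value (vertical axes, linear from 0, own scale for each gene) of *s100a10b* and the 5 other S100 genes tested, in *tbx5a*+ (green) and *tbx5a*- (purple) libraries, with symbols for the replicate, grey lines for pairs and black bars for means of 4. *s100a10b* and *s100u* do not overlap between the populations, *icn* is at 5.15 in 1 *tbx5a*- library, and *s100s*, *s100t* and *s100v2* overlap.

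Of 17 genes for partners of the annexin A2–S100A10 complex and for the plasminogen system, 9 passed the filter and 0 were called, with a median log2 fold change of -0.57. *ahnak*, which encodes a giant scaffold protein bound by the complex at the mammalian plasma membrane, had 4909 ± 1318 in *tbx5a*- against 3226 ± 385 in *tbx5a*+ cardiomyocytes (SD, *n* = 4 each). Its groups did not overlap, and its log2 fold change of -0.58 (SE 0.20) had an adjusted *p* of 0.55. *ezrb*, for the membrane–actin linker ezrin, had 1510 ± 148 and 1407 ± 251 (adjusted *p* = 0.93), and *cttn*, for cortactin, 482 ± 96.2 and 403 ± 159 (SD, *n* = 4 each, adjusted *p* = 0.84). The plasminogen activator gene *plat* was listed at 0 in all libraries, and *plau* had a mean of 7.81 in *tbx5a*+ and 4.53 in *tbx5a*- cardiomyocytes.

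Of 35 genes of membrane repair, 28 passed the filter, 2 were higher in *tbx5a*- and 0 in *tbx5a*+ cardiomyocytes, and the median log2 fold change was -0.06. One of those called was *ptrfb*, for a cavin of caveolae, at 664 ± 395 in *tbx5a*- against 109 ± 15.8 in *tbx5a*+ cardiomyocytes (SD, *n* = 4 each, log2 fold change -2.39, adjusted *p* = 0.0013). The other was *ehd2b*, for an ATPase at the neck of caveolae, at 401 ± 231 and 14.8 ± 10.6 (SD, *n* = 4 each, log2 fold change -5.19, adjusted *p* = 0.0013). Leaving out *tbx5a*- replicates 2 and 9 together kept the direction of both, at -1.63 for *ptrfb* and -4.41 for *ehd2b*, but ended the calls (adjusted *p* = 0.29 and 0.60). *ptrfa*, the other cavin 1 gene, had 5136 ± 1791 and 8171 ± 2090 (adjusted *p* = 0.51), *chmp4ba*, for a membrane-cutting ESCRT subunit, 1175 ± 90.9 and 1256 ± 528 (adjusted *p* = 0.997), and *snap23.1*, for a membrane fusion protein, 557 ± 132 and 586 ± 64.8 (SD, *n* = 4 each, adjusted *p* = 0.96).

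Of 10 genes of other annexin partners, 7 passed the filter and 0 were called, with a median of -0.36. *gca*, for the calcium-binding protein grancalcin, had 459 ± 91.8 and 367 ± 136 in *tbx5a*- and *tbx5a*+ cardiomyocytes, PRKCA, for a protein kinase C bound by annexin A6 in mammals, 68.1 ± 40.6 and 143 ± 59.3, and *cacybp* 117 ± 47.0 and 92.1 ± 39.6 (SD, *n* = 4 each, adjusted *p* = 0.78, 0.70 and 0.90).

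Annexins are also expressed by endothelial cells, fibroblasts, smooth muscle and blood cells, so markers of these cells were read in the same libraries. Of 13 smooth muscle and mural symbols, 7 were matched to 1 gene each, of which 5 were above 0 and 4 were tested. Of these, *acta2* and *tagln* were called higher in *tbx5a*- cardiomyocytes, under 17 and 7 of 18 alternative settings. The log2 fold change was below 0 for all 4 tested genes, with a median of -2.71. This count and median include *acta2* and *notch3*, which passed the filter only because of their *tbx5a*- values, so nothing is drawn from them. *elnb*, above 0 in the *tbx5a*+ library of replicate 2 alone at 4.11, did not pass. For *acta2* the log2 fold change was -6.67, at a mean of 275 in *tbx5a*- against 2.28 in *tbx5a*+ cardiomyocytes. *cnn1b*, at 82.5 against 23.8, and *notch3*, at 34.0 against 3.83, were not called (adjusted *p* = 0.67 and 0.72 from limma). Most of the sum came from *acta2* and *tagln*, whereas *cnn1a* and *rgs5a* were listed at 0 in all 8 libraries. The list summed to 551 to 2812 in *tbx5a*- and 160 to 490 in *tbx5a*+ libraries, so that, like *anxa2a*, it was higher in *tbx5a*-. In *tbx5a*- replicates 2, 8, 9 and 10 the list summed to 2067, 551, 2812 and 915, beside 1914, 1365, 1922 and 800.4 for *anxa2a*. In the *tbx5a*+ libraries of the same replicates it summed to 208, 222, 160 and 490, beside 12.3, 79.5, 43.0 and 50.8 for *anxa2a*. The smooth muscle myosin symbol MYH11 is borne by ENSDARG00000009782, with at most 3.29 in *tbx5a*- and 10.3 in *tbx5a*+ libraries, and by ENSDARG00000100972, with at most 48.1 and 11.3. Both populations were sorted for the *myl7*-driven nuc-dsRed of cardiomyocytes, and the part of smooth muscle cells in the *anxa2a* and *s100a10b* values was not tested.

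The sums of the other marker lists, by the genes matched, overlapped between the populations, and none of the genes in these lists was called. Single genes were seen on 1 side only, in either direction. The endothelial gene *erg* had a mean of 19.2 in *tbx5a*- and 0 in *tbx5a*+ cardiomyocytes, whereas *fli1a* had 0 and 7.62. Of 11 endothelial and endocardial genes, 10 were above 0, and they summed to 131 to 293 in *tbx5a*- and 122 to 207 in *tbx5a*+ libraries. Of 12 epicardial and fibroblast genes, 9 were above 0, with sums of 53.1 to 527 and 107 to 199, and of 10 leukocyte genes 6 were above 0, with sums of 2.37 to 260 and 20.1 to 35.8. The highest epicardial and leukocyte sums were both in the *tbx5a*- library of replicate 2, which also had the highest *anxa1a* value, 75.7, and the part of these cells in that value was not tested. Of 4 erythroid genes 1 was above 0, with sums of 1.19 to 46.9 in *tbx5a*- and 8.41 to 27.8 in *tbx5a*+ libraries, and of 5 thrombocyte genes 3 were, with sums of 14.3 to 56.2 and 0 to 32.9.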

How the data were processed

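Sorted cardiomyocytes of 4 paired pools were profiled by RNA-Seq, with libraries from 0.6 ng of total RNA after 2 rounds of amplification and 60-base reads. The authors trimmed reads with cutadapt and used RSEM for expected counts (RSEM 1.2.3, CASAVA 1.8.2 and build Zv9 per the submitters' processing notes). The methods of the study instead name a later RSEM version and an Ensembl transcriptome, and which of them made the table is not settled here. The deposited values are a normalized signal, not counts: below 60, 70.3% to 77.7% of a library's values lay within 0.0051 of a whole multiple of 1 spacing, so they were not turned back into whole reads, and estimated reads are the value divided by the spacing. No coordinates are given.

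The filter was that of the study, 1 CPM or more in 2 or more libraries. The populations were compared on log2(value + 1) by limma (3.58.1, R 4.3.3) with a variance trend and no block, Benjamini–Hochberg adjustment ran over all genes kept, and the fit was tested on simulated data. Python 3.11.15 was used otherwise. The members and lists were chosen with earlier results of these data known. The text names all members, called genes of each list and up to 3 more with the highest mean, and the 5 genes most like *anxa2a*. Symbols of the lists that matched no gene were left out, and so were marker symbols shared by several genes.

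The labels pair the libraries by number. Deviations from the group means correlated across genes at 0.089, 0.058, 0.043 and 0.076 for replicates 2, 8, 9 and 10, and each *tbx5a*+ library correlated best with its own partner. Alternatives changed the pseudocount, filter, scaling, block, robust fit, limma-voom and the libraries included.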

Additional observations from a re-analysis of the deposited data

Results flagged for a closer look

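In groups of 4 libraries, a library was set apart where its gap to the nearest other exceeded the 95% critical share of the group's range in Dixon's test. Chance alone does so in about 1 in 20 groups, and 9 of 136 groups of 68 genes were found. Among the annexins these were *anxa6* in *tbx5a*+ cardiomyocytes, at 1390 in replicate 10 against 1021 in the next library, and *anxa5b* in *tbx5a*- cardiomyocytes, at 42.7 in replicate 9 against 6.87 in the next. Among the S100 genes, *s100u* was low in *tbx5a*+ replicate 8, at 7.85, *s100v2* was high in *tbx5a*- replicate 9, at 74.7, and *s100t* was above 0 in *tbx5a*- replicate 10 alone of its group, at 38.6. In the lists of partners and membrane repair, *plau* was high in *tbx5a*+ replicate 8, at 24.9. *cavin4a* was high in *tbx5a*- replicate 2, at 76.3, and both *cavin4b* and *vps4a* in *tbx5a*+ replicate 2, at 56.9 and 47.2.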

How the results depend on the processing

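The call of *anxa2a* as the 1 called member held under all 18 alternatives, including the fit with the replicate number as a block, without each library in turn (1 to 1), and the fit that left out *tbx5a*- replicates 2 and 9 together (log2 fold change -4.73). All fits used the libraries on which the family was chosen, or a part of them. They show how the call depends on the settings and are no independent evidence for it. The block changed no call of the other members or of the other named genes tested, but it moved their adjusted *p* from limma. It brought *cd63*, *s100u* and *ehd1b* each to 0.052, *ptrfa* to 0.053 and *ahnak* to 0.11, whereas *crb2a* rose from 0.0023 to 0.0034. The membrane repair list had 2 called genes, but 1 with 0.1 added to each value, 1 with limma-voom on estimated counts and 0 without those 2 *tbx5a*- libraries. *ehd2b* was the gene lost in the first 2 of these (adjusted *p* = 0.12 and 0.093 from limma), although its log2 fold change was larger in size there, at -6.06 and -5.46 against -5.19, and the cause was not tested. Of the 5 genes most like *anxa2a*, 1 was also among the 7 highest by Spearman's rho. Over all tested genes, 27 were called, 58 with the replicate block, 19 to 31 without 1 library and 6 without the 2 *tbx5a*- libraries. Scaling to library totals moved the median log2 fold change of all genes from 0.20 to 0.09. Where a gene was listed at 0, as *anxa1a*, *anxa5b* and *s100a10b* were in some *tbx5a*+ libraries, the depth cannot show whether it is absent.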

Other observations

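Beyond the genes chosen by rule, a few genes of the lists were picked out after their values were seen. *ezra*, for an ezrin-like membrane–actin linker, had 14.5, 28.4, 18.0 and 7.36 in *tbx5a*+ replicates 2, 8, 9 and 10 and was listed at 0 in all 4 *tbx5a*- libraries, the reverse of *anxa2a*, but from few reads (adjusted *p* = 0.46 from limma). *ehd1b*, for an endosomal ATPase, stood at 578 ± 147 in *tbx5a*- against 259 ± 61.4 in *tbx5a*+ libraries (SD, *n* = 4 each) without overlap, with a log2 fold change of -1.15 (adjusted *p* = 0.19 from limma). *pdcd6*, *pdcd6ip* and *pef1*, for the calcium sensor bound by annexin A11 and its partners, each had the higher value on the *tbx5a*+ side of 4 of 4 pairs, with log2 fold changes of 0.40, 0.50 and 1.33, and none passed the test (adjusted *p* = 0.90, 0.77 and 0.72 from limma). Among all tested genes, 9.54% were higher in *tbx5a*+ cardiomyocytes in 4 of 4 pairs.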
